A study of Homo sapiens with 27 samples.

Results

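Inflammatory chemokine and cytokine genes were followed in U937 cells treated with matrine, an alkaloid of the herb Sophora flavescens. The set held 10 genes, CCL2, CXCL8, TNF, CCL3, CCL4, CCL5, CXCL2, CXCL3, IL1B and OSM, which were picked by name with their changes in these libraries already known. Of the 10 genes, 7 were matched to a row among the 57905 gene identifiers of the table. CCL3, CCL4 and CCL5 are not analysed here, because the identifiers that GENCODE release 44 gives them have no row. Since the set was picked for its response, the members' values below are a description and carry no p-value. The lists of other chemokine and cytokine genes were also chosen with earlier results of these data known. Their p-values are to be read with that limit.

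U937 is a human myeloid line with monocytic features, described in the study as acute myeloid leukaemia. RNA was sequenced in 3 libraries per group, from control U937, from U937 given matrine at 0.8 mg/ml over 30 min and from U937 given that dose over 24 h. Water was the vehicle of matrine in the study, and both treated groups were compared with the same 3 control libraries. The culture time of the control is not given in the sources used here, so 24 h of matrine and the time in culture cannot be told apart. Nothing in the labels says whether libraries of a group came from separate cultures. The HL-60 and K562 cells of the study are not analysed here.

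Chemokines are small secreted proteins that steer leukocytes along a gradient by binding G-protein-coupled receptors. CC chemokines such as CCL2 act mainly on monocytes, and the CXC chemokines CXCL8, CXCL2 and CXCL3 act mainly on neutrophils through CXCR1 and CXCR2. TNF and IL1B are cytokines that start inflammatory responses through receptors coupled to NF-kB and MAP kinases, and OSM signals through receptors that hold gp130. Monocytic cells are a known source of most of them, and many of their mRNAs carry AU-rich elements in the 3′ UTR and are known to be short-lived.

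The promoter windows of 5 members are shown first, because these genes were lower together at 30 min or lie side by side, and because they place the motifs referred to below. Each window runs from 250 bases before to 50 bases after the transcription start in RefSeq, build GRCh38.p14, and is written 5′ to 3′ on the strand of the gene. Capitals mark matches to an NF-kB consensus, to the AP-1 motif TGANTCA and to the C/EBP motif TTGCNNAA, each on both strands, and to TATAAA on the strand of the gene only. The windows lie at chr4:73740319-73740618 (plus strand) for CXCL8, chr6:31575315-31575614 (plus) for TNF, chr4:74099146-74099445 (minus) for CXCL2, chr4:74038640-74038939 (minus) for CXCL3 and chr2:112836730-112837029 (minus) for IL1B.
CXCL8: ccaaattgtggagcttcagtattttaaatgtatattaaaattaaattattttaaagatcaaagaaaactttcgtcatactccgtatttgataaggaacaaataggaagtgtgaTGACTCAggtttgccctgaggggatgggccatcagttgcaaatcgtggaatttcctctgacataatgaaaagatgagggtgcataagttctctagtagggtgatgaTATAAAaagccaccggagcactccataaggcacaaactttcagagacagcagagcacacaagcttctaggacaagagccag
CXCL2: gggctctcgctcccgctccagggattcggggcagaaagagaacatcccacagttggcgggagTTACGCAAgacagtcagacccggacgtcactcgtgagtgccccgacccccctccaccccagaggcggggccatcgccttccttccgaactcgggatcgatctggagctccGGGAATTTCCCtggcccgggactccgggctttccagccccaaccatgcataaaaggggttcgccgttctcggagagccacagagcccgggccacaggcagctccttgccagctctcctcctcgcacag
CXCL3: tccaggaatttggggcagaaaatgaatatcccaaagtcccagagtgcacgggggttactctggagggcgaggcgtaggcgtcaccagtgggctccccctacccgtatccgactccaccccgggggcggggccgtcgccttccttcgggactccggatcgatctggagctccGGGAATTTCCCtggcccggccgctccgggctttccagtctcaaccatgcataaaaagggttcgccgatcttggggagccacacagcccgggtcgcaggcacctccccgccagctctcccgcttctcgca
TNF: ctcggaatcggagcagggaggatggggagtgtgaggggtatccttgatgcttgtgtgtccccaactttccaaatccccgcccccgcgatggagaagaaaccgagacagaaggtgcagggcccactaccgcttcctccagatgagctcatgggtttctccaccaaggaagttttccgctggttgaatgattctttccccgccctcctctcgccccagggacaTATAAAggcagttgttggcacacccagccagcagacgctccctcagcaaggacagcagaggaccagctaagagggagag
IL1B: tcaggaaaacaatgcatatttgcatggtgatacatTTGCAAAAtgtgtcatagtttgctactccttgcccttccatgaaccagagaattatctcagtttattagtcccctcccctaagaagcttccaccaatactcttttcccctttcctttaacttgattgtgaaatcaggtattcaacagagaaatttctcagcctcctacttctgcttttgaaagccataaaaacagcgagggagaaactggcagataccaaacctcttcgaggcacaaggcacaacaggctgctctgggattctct

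The window of CXCL8, the main neutrophil chemokine of human cells, held an AP-1 match that began 137 bases before the start and TATAAA at 31 bases before it. The window of TNF held TATAAA at 29 bases before the start and no other match. CXCL2 and CXCL3, a pair of neighbouring genes on chromosome 4, each held a run that gave 2 overlapping NF-kB matches, beginning 78 and 77 bases before the start in CXCL2 and 79 and 78 bases before it in CXCL3. That run lay in a stretch of 37 identical bases, the longest that the windows of CXCL2 and CXCL3 shared. Among all 27305 promoter windows of the same length, 10.8% held an NF-kB match, 7.76% AP-1, 7.71% TATAAA and 10.6% C/EBP. CXCL2 and IL1B each held a C/EBP match, beginning 188 and 215 bases before the start. A match is a description of the letters, and a window without a match says nothing about the factor.

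AU-rich elements were shown for 6 members as the 30-base window of the 3′ UTR with the most copies of ATTTA, the DNA form of the AUUUA pentamer, which is in capitals. The windows come from the canonical transcripts of GENCODE release 44 and are written on the strand of the gene.
CCL2: tatgccttaagtaatgttaattcttATTTA
CXCL8: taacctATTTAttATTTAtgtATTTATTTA
CXCL2: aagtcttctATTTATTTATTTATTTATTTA
TNF: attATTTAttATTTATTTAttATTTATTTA
IL1B: tgagcaaccgcttccctATTTATTTATTTA
OSM: tatcagttttatATTTAtaagccttATTTA

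The whole 3′ UTR held 10 pentamers in CXCL2, 9 in TNF, 9 in CXCL8, 6 in IL1B, 5 in OSM and 1 in CCL2, beside a median of 2 over 19541 protein-coding genes. The nonamer TTATTTATT occurred 5 times in TNF, 5 times in CXCL2, 2 times in IL1B and 1 time in CXCL8, and in neither CCL2 nor OSM. Of all protein-coding genes, 8.44% held the nonamer. The single pentamer of CCL2 is set against its change at 30 min below.

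Each library held 17314931 to 21930018 counts, with 4.99% to 5.28% of them in its top 10 genes. Of 18 myeloid markers, 14 had a mean FPKM above 1 (a level scaled by transcript length and library size), while CSF1R, MPO, CD68 and CD14 lay below it. Summed over the myeloid markers, FPKM was 2757.71 to 3163.2 in the control, 2867.82 to 3026.69 at 30 min and 3338.44 to 3513.99 at 24 h. In bulk RNA, fewer cells of a type and less RNA per cell cannot be told apart.

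CCL2 was by far the most abundant member and was lower at both times. CCL2 encodes MCP-1, the chemokine that draws monocytes through CCR2. Its FPKM was 43.56, 41.6 and 41.09 in the control libraries, 8.7, 11.17 and 10.91 after 30 min and 8.26, 9.16 and 9.62 after 24 h. All 6 treated libraries lay below all 3 controls, and the libraries of the treated groups overlapped each other. The log2 fold change was -2.03 ± 0.097 (standard error) at 30 min, which is 4.07-fold lower, and -2.28 ± 0.099 at 24 h, which is 4.86-fold lower. The mean level was 24.4% of the control at 30 min and 21.4% at 24 h. Between 24 h and 30 min the log2 difference was -0.25 ± 0.11.

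CXCL8 had the same course at a lower level. Its FPKM was 8.2, 9.85 and 8.46 in the control, 1.8, 1.86 and 1.47 at 30 min and 1.69, 1.9 and 1.73 at 24 h. Again every treated library lay below every control, with no gap between the times. The log2 fold change was -2.35 ± 0.13 at 30 min (5.11-fold lower) and -2.37 ± 0.13 at 24 h (5.19-fold lower). Of the members, CXCL8 had the largest fold at both times in the fits whose values are printed here. Its error range overlapped that of TNF at 30 min and that of CCL2 at 24 h. With limma on log2(FPKM + 1), an alternative described below, CCL2 had a larger fold than CXCL8 at both times (log2 -2.11 against -1.82 at 24 h). From 30 min to 24 h the log2 difference of CXCL8 was -0.02 ± 0.15, so the 24 h level lay within the error of the 30 min level.

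CXCL2, another ligand of CXCR2, was the least abundant member with counts in the control. Its FPKM was 1.06, 1.27 and 1.12 in the control, 0.49, 0.78 and 1.05 at 30 min and 0.65, 0.26 and 0.43 at 24 h. These levels rest on 29 to 37 counts per control library and on 8 to 32 counts per treated library. At 30 min the highest treated library lay only just under the lowest control, and the raw counts of the groups overlapped (16, 24 and 32 against 33, 37 and 29). At 24 h all 3 libraries lay well below the controls. Its mean FPKM was under the filter of 1 in each comparison, so its log2 fold changes of -0.56 ± 0.31 at 30 min and -1.47 ± 0.34 at 24 h come from a fit without the filter. Without 30 min replicate 1 the gene passed the filter, and its log2 change at 30 min was then -0.31.

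CXCL3 had a count of 0 in all 9 libraries, which allows up to 3 counts or 0.137 to 0.173 CPM (counts scaled by library size) per library. CXCL1, the third near-identical gene of this group, had 1 count in a single library. Reads that fit several of these related genes could be split or dropped in the authors' counting, and how such reads were handled is not given in the sources used here, so the levels of CXCL2 and CXCL3 are uncertain. The NF-kB run printed above thus stood before a gene with counts in every library and before one with none.

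**Figure D1:**
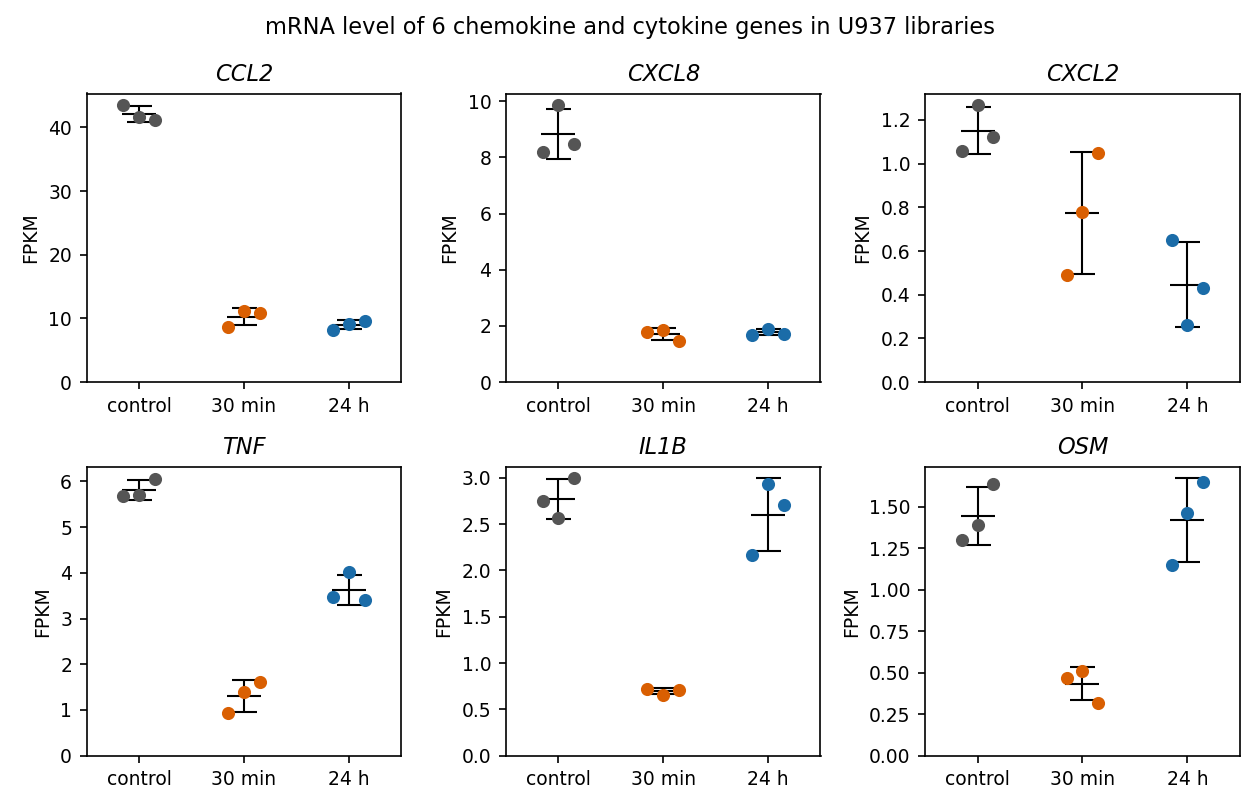
mRNA level of the 6 detected members in FPKM (vertical axes, linear, from 0) for the 3 libraries of each group (points). Horizontal marks and bars give the mean and its SD. CCL2 and CXCL8 are low at both times, while IL1B and OSM are low at 30 min and back among the controls at 24 h.

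TNF was low at 30 min and had come back in part at 24 h. TNF encodes tumour necrosis factor, a cytokine that activates NF-kB and can trigger cell death. Its FPKM was 5.68, 5.7 and 6.06 in the control, 0.93, 1.39 and 1.61 at 30 min and 3.48, 4.01 and 3.41 at 24 h. The 3 groups did not overlap, with the 24 h libraries between the others. The log2 fold change was -2.14 ± 0.17 at 30 min (4.41-fold lower) and -0.73 ± 0.15 at 24 h (1.66-fold lower). From 30 min to 24 h it was 1.41 ± 0.18 higher on the log2 scale. TNF regained 51.6% of the level that separated 30 min from the control.

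IL1B, the secreted form of interleukin 1 that inflammasomes activate, was low at 30 min and among the controls at 24 h. Its FPKM was 2.75, 2.57 and 3.0 in the control, 0.72, 0.66 and 0.71 at 30 min and 2.17, 2.93 and 2.71 at 24 h. The 30 min libraries lay close together and below all others, and the 24 h libraries overlapped the controls. The log2 fold change was -1.97 ± 0.16 at 30 min (3.92-fold lower) and -0.15 ± 0.14 at 24 h. The 24 h level was 93.9% of the control, and 3.54-fold above the 30 min level.

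OSM, which encodes oncostatin M, a cytokine of the interleukin 6 family, followed IL1B at a lower level. Its FPKM was 1.3, 1.39 and 1.64 in the control, 0.47, 0.51 and 0.32 at 30 min and 1.15, 1.46 and 1.65 at 24 h. All 30 min libraries were below all others, and 24 h and control libraries overlapped. Its mean FPKM of 0.938 over the control and 30 min libraries was just under the filter, so the log2 fold change of -1.69 ± 0.27 at 30 min comes from the fit without the filter. At 24 h it was -0.07 ± 0.21, at 98.4% of the control.

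The 6 detected members did not share a single course. At 30 min their log2 fold changes lay between -2.35 and -0.56, and at 24 h between -2.37 and -0.07. CCL2 and CXCL8 had regained -3.92% and 0.889% of the early difference at 24 h, TNF 51.6%, IL1B 91.8% and OSM 97.7%. CXCL2 regained none, with a mean at 67.2% of the control at 30 min and 38.8% at 24 h. It had few counts, and its 30 min and 24 h libraries overlapped. In the control the order of mean FPKM was CCL2 (42.1 ± 1.3, SD, n = 3), CXCL8 (8.84 ± 0.89), TNF (5.81 ± 0.21), IL1B (2.77 ± 0.22), OSM (1.44 ± 0.18) and CXCL2 (1.15 ± 0.11), and in this order the libraries of neighbouring genes did not overlap. At 24 h the order was CCL2 (9.01 ± 0.69), TNF (3.63 ± 0.33), IL1B (2.60 ± 0.39), CXCL8 (1.77 ± 0.11), OSM (1.42 ± 0.25) and CXCL2 (0.447 ± 0.20), so that CXCL8 stood below TNF and IL1B. The libraries of neighbouring genes did not overlap there either, although the lowest CXCL8 library (1.69) was close to the highest OSM library (1.65). At 30 min CCL2 (10.3 ± 1.4) stood above all others, and CXCL8 (1.71 ± 0.21), TNF (1.31 ± 0.35) and CXCL2 (0.773 ± 0.28) each overlapped the next gene in the order. IL1B (0.697 ± 0.032) and OSM (0.433 ± 0.10) came last and did not overlap each other.

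**Figure D2:**
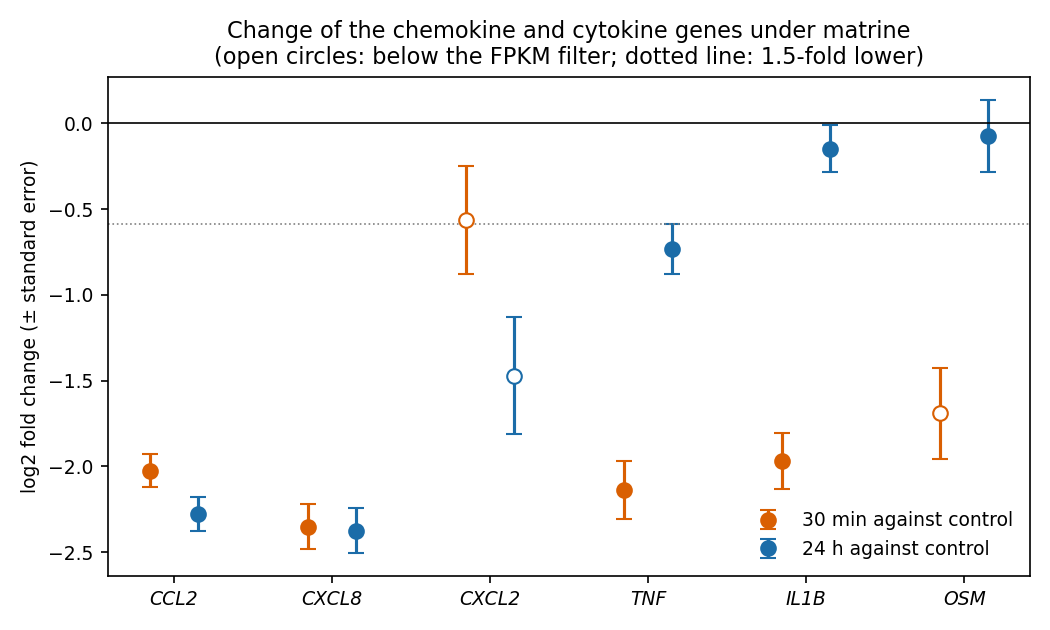
log2 fold change against control (vertical axis) with its standard error (bars) for the 6 detected members at 30 min and 24 h. Open circles are genes below the FPKM filter and the dotted line is a 1.5-fold lower level. CCL2 and CXCL8 sit near or below -2 at both times, whereas TNF, IL1B and OSM lie nearer 0 at 24 h.

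The fold at 30 min is set here beside the number of pentamers in the 3′ UTR. OSM, with 5 pentamers, was 3.23-fold lower, and IL1B, with 6, was 3.92-fold lower. TNF and CXCL8, tied with 9 each, were 4.41- and 5.11-fold lower, so these 4 genes stood in the same order by raw count and by fold. OSM was below the filter in this comparison. The log2 changes were -1.69 ± 0.27, -1.97 ± 0.16, -2.14 ± 0.17 and -2.35 ± 0.13. The error ranges of neighbouring genes overlapped, so the order by fold is not resolved. CCL2, with 1 pentamer, was 4.07-fold lower and lay outside that order. So did CXCL2, with 10 pentamers and a fold of 1.48, which was below the filter and had overlapping raw counts. CXCL8 and TNF had the same number of pentamers but different levels relative to the control at 24 h (20.1% and 62.5%). This is an order of 6 genes without a test.

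Calls were made where edgeR's quasi-likelihood test gave an adjusted p (Benjamini-Hochberg over all genes tested) below 0.05 with at least a 1.5-fold change, among genes whose FPKM averaged more than 1 in the 6 libraries compared. At 30 min 4 members passed the filter and all 4 (CCL2, CXCL8, TNF and IL1B) met the rule for lower, while 0.544% of all 11587 genes tested were called lower and 0.0949% higher. At 24 h 5 members passed the filter and 3 (CCL2, CXCL8 and TNF) met the rule for lower, where 11.5% of 12035 genes were called lower and 14.8% higher. From 30 min to 24 h, TNF and IL1B of 4 members met the rule for higher, where 15.7% of 11981 genes were called higher and 11.3% lower. IL1B averaged 0.697 FPKM at 30 min. It passed the filter only through its control level in the first comparison and through its 24 h level in the last. Treated and control libraries did not overlap in FPKM for each of the 6 detected members at 30 min, all lower, and in 4 of them at 24 h, all lower, and for TNF, IL1B and OSM the 24 h libraries lay above all 30 min libraries. Over all tested genes, such a gap was found downward in 8.91% and upward in 4.89% at 30 min, in 31.0% and 38.7% at 24 h, and in 28.6% and 39.9% from 30 min to 24 h. The members were picked for these changes, so nothing is read from their counts.

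Each tested member was set beside all other genes by Pearson's r of log2 CPM over the 9 libraries, as a description in which all points share libraries and groups. CCL2 was most like MYC (r = 0.996), PRDM8 (0.989) and TENT5A (0.983). CXCL8 was most like PRDM8 (0.992), TENT5A (0.987) and LCMT2 (0.983), and its r with CCL2 was 0.982. Both members therefore shared PRDM8 and TENT5A among their 3 most similar of 12239 genes.

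TNF was most like the non-coding ZFAND2A-DT (0.990), IRS2 (0.983) and JUN (0.980). IL1B was most like DUSP6 (0.985), MIR23AHG (0.983) and EGR1 (0.975), and OSM was most like IL1B itself (0.971), B3GNT2 (0.970) and DUSP6 (0.960). JUN and EGR1 encode transcription factors of the early response, and DUSP6 encodes a phosphatase of ERK kinases. The r of TNF was 0.934 with IL1B and 0.689 with CCL2, and that of IL1B with CCL2 was 0.471.

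Chemokines outside the set that had a row were scarce in these cells. CCL18, CCL23, CCL3L1, CCL3L3 and CCL4L2 had no matched row and are not analysed here. Of 13 other chemokines with a row in the CC list, which also held XCL1 and XCL2 of the C family, 0 had a mean FPKM above 1 in any comparison. CCL7, the neighbour of CCL2 on chromosome 17 and another monocyte chemokine, had 7, 4 and 6 counts in the control, 3, 0 and 3 at 30 min and 4, 0 and 0 at 24 h. CCL20, a ligand of CCR6, had FPKM of 0.65, 0.73 and 0.52 in the control, 0.17, 0.11 and 0.07 at 30 min and 1.02, 0.96 and 0.99 at 24 h, and it was named after its values were seen. Its 3 groups did not overlap, with 30 min lowest and 24 h highest, on 2 to 29 counts per library. Of 15 other CXC and CX3C chemokines, CXCL16 passed the filter, and it was called higher at 24 h (log2 0.61 ± 0.23, adjusted p = 0.023 with edgeR). That call was lost without control replicate 2 (log2 0.44) or 24 h replicate 1 (0.43), without the FPKM filter (0.55), and with limma on log2(FPKM + 0.1) (0.62) or on log2(FPKM + 1) (0.37).

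Among 31 other cytokines, 11 were tested at 30 min and 0 were called by edgeR, DESeq2 or limma, with 4 lower at an unadjusted p below 0.05. Of all genes tested at 30 min, 0.544% were called lower and 0.0949% higher. At 24 h 12 of the cytokines were tested, of which 5 were higher and 2 lower, beside 14.8% and 11.5% of all genes tested. IL18, an inflammasome-activated relative of IL1B, rose by 1.13 ± 0.096 on the log2 scale (adjusted p = 2.5e-09, edgeR), from 5.08 ± 0.52 to 11.6 ± 0.80 FPKM (SD, n = 3). LTB, the gene next to TNF, had 0.81 ± 0.30 FPKM in the control, 0.61 ± 0.26 at 30 min and 1.81 ± 0.33 at 24 h, and passed the filter only through its 24 h level (log2 1.10 ± 0.30 against control, adjusted p = 0.0029, edgeR). MIF, an abundant cytokine that holds back macrophage migration, was lower at 24 h by a log2 change of -1.02 ± 0.088 (adjusted p = 2.8e-09, edgeR), and TNFSF13B, the B cell factor BAFF, by -1.01 ± 0.071 (adjusted p = 1.3e-10). IL16, TNFSF13 and VEGFA were the other genes called higher, the first pair named after their values were seen.

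The receptors that the members use were present unevenly. TNFRSF1A and TNFRSF1B, both receptors of TNF, had means of 48.5 ± 1.4 and 30.4 ± 0.93 FPKM (SD, n = 3) in the control. CXCR2, the receptor shared by CXCL8 and CXCL2, had 3.84 ± 0.19, whereas CXCR1 was listed at 0 in the control and at 30 min. CCR2, the receptor of CCL2, had 0.203 ± 0.035, and OSMR and LIFR, which pair with gp130 for OSM, had 0.0067 and 0. IL6ST, which encodes gp130, had 0.623 ± 0.051, and IL1R1, the signalling receptor of IL1B, had 0.0433 beside 2.57 ± 0.34 for its partner IL1RAP. The cells therefore held mRNA of both TNF receptors well above 1 FPKM, and mRNA of CCR2, IL1R1, OSMR, LIFR and IL6ST below 1 in the control.

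**Figure D3:**
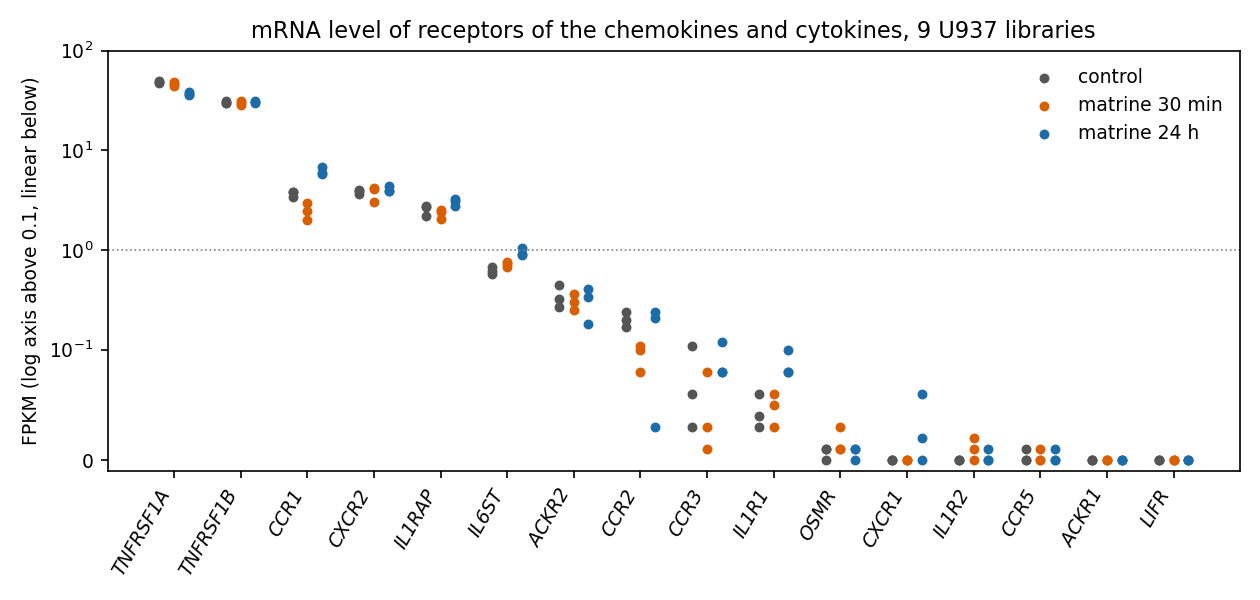
mRNA level of 16 receptors and decoy receptors of the members in the 9 libraries (points, coloured by group). The vertical axis is FPKM, logarithmic above 0.1 and linear below, and the dotted line is the filter at 1 FPKM. TNFRSF1A and TNFRSF1B are highest, and the 24 h points of CCR1 (5.76 to 6.76) lie above its control points (3.43 to 3.79).

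Of 16 receptors, 5 were tested, and at 30 min edgeR, DESeq2 and limma called 0 of them, with CCR1 alone at an unadjusted p below 0.05. Of all genes tested at 30 min, 0.544% were called lower and 0.0949% higher. CCR1, a receptor of CCL3 and CCL5, had a log2 change of -0.55 ± 0.13 at 30 min, which was under the 1.5-fold rule (adjusted p = 0.035, edgeR). It was called higher at 24 h by 0.69 ± 0.12 (adjusted p = 5.1e-05, edgeR), with FPKM of 3.43, 3.78 and 3.79 in the control and 5.76, 6.76 and 5.93 at 24 h. TNFRSF1A had a log2 change of -0.45 ± 0.057 at 24 h (adjusted p = 8.4e-07), also under the rule, and TNFRSF1B one of -0.04 ± 0.059 (adjusted p = 0.54). Among 15 other chemokine receptors, CXCR4, the receptor of CXCL12, was the single gene tested at 30 min and was called lower. Its FPKM was 124.04, 130.09 and 124.57 in the control, 78.45, 74.91 and 81.54 at 30 min and 120.15, 113.08 and 118.48 at 24 h. The log2 change of CXCR4 was -0.68 ± 0.055 at 30 min (adjusted p = 4.4e-08, edgeR) and -0.17 ± 0.054 at 24 h, so it was low at 30 min and nearer the control at 24 h. CCR10 and CX3CR1 were called higher at 24 h and passed the filter only through their 24 h level. Of all genes tested at 24 h, 14.8% were called higher and 11.5% lower.

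Genes that process the cytokines or hold them back had 0 calls among 11 tested at 30 min with edgeR, DESeq2 or limma (1 lower and 1 higher at an unadjusted p below 0.05). Of all genes tested at 30 min, 0.544% were called lower and 0.0949% higher. At 24 h 4 of 12 tested genes of this list were higher, beside 14.8% of all genes tested. IL1RN, the secreted antagonist of the IL1B receptor, had FPKM of 1.02, 0.89 and 0.94 in the control and 3.44, 2.8 and 2.9 at 24 h, a log2 change of 1.62 ± 0.16 (adjusted p = 2.1e-08, edgeR). NLRC4, an inflammasome sensor, had a log2 change of 1.45 ± 0.19 (adjusted p = 1.3e-06, edgeR). In this comparison both passed the filter only through their 24 h level. The others were GSDMD and SIGIRR, named after their values were seen. CASP1, which cleaves pro-IL1B, and ADAM17, which sheds TNF, had log2 changes of 0.29 ± 0.089 and 0.42 ± 0.066 at 24 h, under the 1.5-fold rule. NLRP3, the sensor of the best known inflammasome, had a log2 change of -0.43 ± 0.069 at 30 min (adjusted p = 0.00072, edgeR), under the rule as well. These 3 genes were named after their values were seen.

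Adaptors and kinases that act below the receptors had 0 calls among 28 tested at 30 min with edgeR, DESeq2 or limma (2 lower at an unadjusted p below 0.05). At 24 h 8 were called higher and 0 lower, where 4 were lower at an unadjusted p below 0.05. Of all genes tested, 0.0949% were called higher and 0.544% lower at 30 min, and 14.8% higher and 11.5% lower at 24 h. IRAK4 and IRAK2, kinases of the IL1B receptor complex, were higher at 24 h by 1.01 ± 0.082 and 0.98 ± 0.091 on the log2 scale (adjusted p = 1.1e-09 and 7.4e-09, edgeR). The median log2 change of the 28 genes was 0.014 at 30 min and 0.26 at 24 h, beside -0.003 and -0.0022 over all genes tested.

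Factors of mRNA decay and stability gave 2 of the 3 calls made at 30 min among the pathway genes, ZFP36L2 and TENT5A, besides CXCR4. The lists were chosen with earlier results known, so nothing is read from where the calls fell. ZFP36L2, which binds AU-rich elements and starts mRNA decay, had FPKM of 276.33, 270.79 and 255.8 in the control, 87.49, 97.51 and 91.26 at 30 min and 168.15, 169.51 and 161.26 at 24 h. Its log2 change was -1.53 ± 0.054 at 30 min (adjusted p = 4.7e-14, edgeR) and -0.75 ± 0.053 at 24 h (adjusted p = 1.4e-10). TENT5A, a poly(A) polymerase, was lower at both times, by -1.06 ± 0.065 and -1.07 ± 0.065 (adjusted p = 7.1e-10 and 1.3e-11, edgeR). ELAVL1, the stabilising factor HuR, was called lower at 24 h at -0.74 ± 0.057 (adjusted p = 6.1e-10). The best known AU-rich decay factor, ZFP36, had a log2 change of -0.43 ± 0.12 at 30 min that missed the threshold (adjusted p = 0.073, edgeR).

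**Figure D4:**
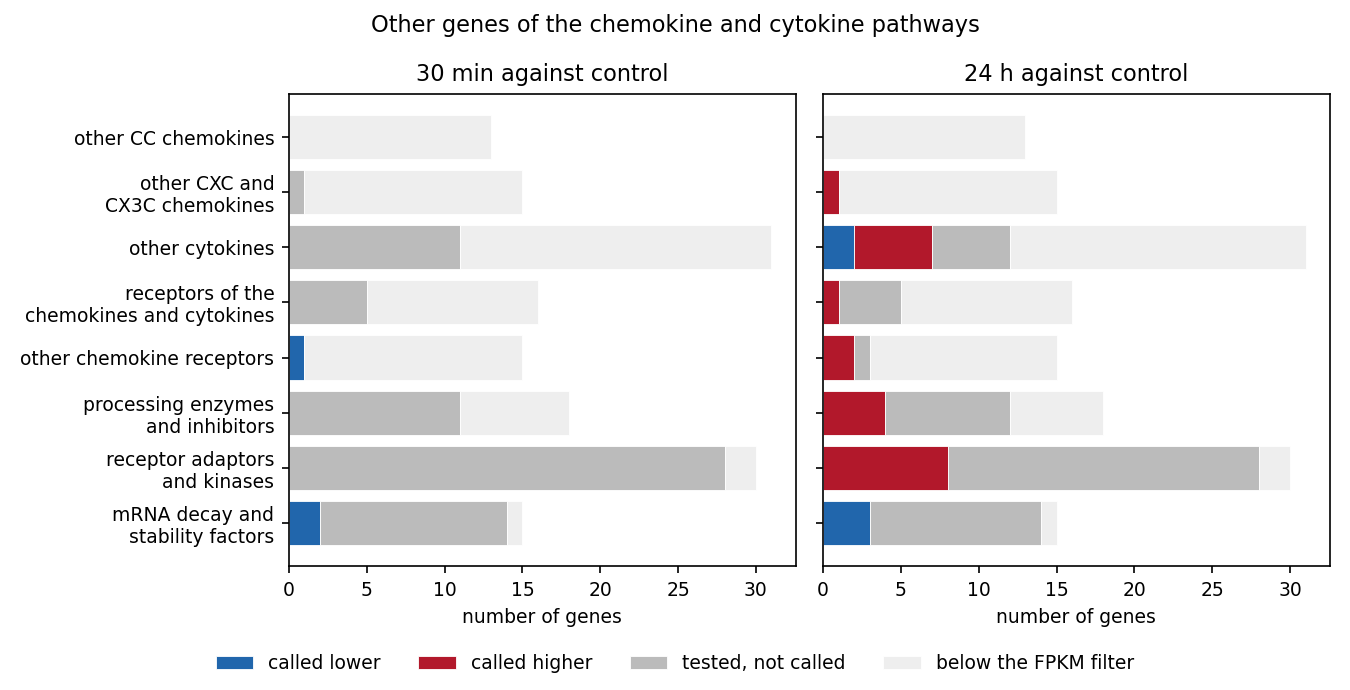
Number of genes (horizontal axis) in each list of other chemokine and cytokine genes that were called lower, called higher, tested without a call or below the FPKM filter, at 30 min and 24 h. At 30 min 3 genes were called, all lower, and at 24 h 5 were lower and 21 higher. Of all genes tested at 24 h, 11.5% were called lower and 14.8% higher.

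In all, 153 pathway genes outside the set had a row. Of 71 tested at 30 min, 3 were called lower and 0 higher with edgeR (1 higher at an unadjusted p below 0.05, and 0 with DESeq2 or limma). Of 75 tested at 24 h, 5 were lower and 21 higher, and of the 21, LTB, CCR10, CX3CR1, IL1RN and NLRC4 passed the filter only through their 24 h level. Over all genes tested, 0.544% were called lower and 0.0949% higher at 30 min, and 11.5% lower and 14.8% higher at 24 h. Markers moved at 24 h as well: of 15 tested myeloid markers, 6 were higher (AZU1, CSF3R, FCER1G, ITGAM, MPO and TYROBP), MPO having passed the filter only through its 24 h level, and PRTN3 was lower, against 0 of 14 called at 30 min by edgeR, DESeq2 or limma (1 lower at an unadjusted p below 0.05). Among markers of lymphoid, erythroid and other cells, CD79A and NKG7 were called higher at 24 h with edgeR, and 6 markers were at 0 in every library. The part of these marker changes in the 24 h results was not tested.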

How the data were processed

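RNA-seq libraries of U937 cells were analysed, 3 per group. The authors trimmed the reads, aligned them and counted them per gene, and they deposited 1 table with the unnormalized count and the FPKM of each gene in each library. The submitters' processing notes list cutadapt 1.9.1, HISAT2 2.0.1, HTSeq 0.6.1 and GRCh37, whereas the paper's methods name hg38, so no coordinates were taken from the table. The annotation release, strand setting and handling of multiply mapped reads are not given in the sources used here. Of 57905 identifiers, 51996 had a symbol in GENCODE release 44.

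Deposited counts were normalized with TMM and tested by the quasi-likelihood method of edgeR (version 4.0.16, under R 4.3.3) in 1 fit of all 9 libraries, with Benjamini-Hochberg adjustment. Genes were tested where FPKM averaged more than 1 in the 6 libraries compared, and were called at an adjusted p under 0.05 with a 1.5-fold or larger change. The standard error was taken as the absolute log2 fold change divided by the square root of F. DESeq2 1.42.0 and limma 3.58.1 were alternatives, together with other filters, scalings, fold thresholds, a replicate block and each library left out. The procedure was tested on simulated data. Replicate libraries differed beyond counting noise and were kept as separate replicates; p-values measure the spread between these libraries, which may be technical. With 3 against 3 an exact permutation test of a single gene gives no p below 0.1.

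The members and the gene lists were chosen with earlier results of these data known. The text names all members, the members' receptors, related chemokines, for each list and comparison the pair of called genes with the largest change in each direction, and the 3 genes most like each tested member. Promoters came from RefSeq (GRCh38.p14), which had an entry for 6 of the 10 members, and 3′ UTRs from GENCODE canonical transcripts. Genes without a matched row are not analysed here, and 1 marker is not reported here.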

Additional observations from a re-analysis of the deposited data

Results flagged for a closer look

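The test of the 24 h against the 30 min libraries (edgeR, adjusted over all genes tested) asked whether the change from the shared control differed between the times. It called 5 of 75 pathway genes lower and 21 higher, beside 11.3% and 15.7% of all genes tested. Only those named for the largest called changes of their list and direction in any comparison are given here. The values are the log2 fold change at 24 h minus that at 30 min, with 3 libraries in each group. Among cytokines the difference was 1.01 for IL18, 1.49 for LTB and 1.07 for VEGFA, and -1.05 for MIF and -0.98 for TNFSF13B. Among receptors it was 1.24 for CCR1, 0.64 for CCR10 and 1.15 for CX3CR1. IL1RN, the antagonist of the IL1B receptor, had a difference of 1.26 and the inflammasome sensor NLRC4 one of 1.83. LTB, CCR10, CX3CR1 and NLRC4 lay below the filter over the control and 30 min libraries. They passed it here with their higher 24 h level, so their differences are a description only. The kinases IRAK2 and IRAK4 differed by 1.08 and 0.99, and the adaptor TRAF2 by -0.59. Among factors that act on mRNA decay the difference was -0.69 for ELAVL1, -0.60 for KHSRP, 0.61 for ZFP36 and 0.78 for ZFP36L2. Leaving out 1 library ended the call of 4 of these genes. Without 30 min replicate 3 the difference of TRAF2 was -0.52, that of KHSRP -0.56 and that of ZFP36 0.56. Without 30 min replicate 1 TRAF2 was at -0.56 and CCR10 at 0.44, without 30 min replicate 2 ZFP36 was at 0.57, and without 24 h replicate 3 TRAF2 was at -0.57 and CCR10 at 0.43. With 3 libraries per group, no single library was tested as standing apart.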

How the results depend on the processing

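No member met the rule in the opposite direction under the alternatives run, and sign changes were seen only in uncalled values near 0 (OSM at 24 h, -0.20 to 0.08, and CXCL8 from 30 min to 24 h, -0.13 to 0.05). Of 259 values of members under an alternative, 252 moved by less than 1 SD of log2 CPM between replicates, pooled over the groups, and 7 by more, all 7 with limma on log2(FPKM + 1), where IL1B at 30 min was -1.15, TNF -1.57 and CXCL8 -1.86; a pseudocount of that size shrinks the change of low genes by construction. Of 360 counts of calls, 316 stayed within 1.5 times. Without a filter on FPKM, 95 genes were lower and 31 higher at 30 min, 9 pathway genes were lower at 24 h, and from 30 min to 24 h 8 pathway genes and 1 member were lower. With a mean FPKM above 5, 7 genes were higher and 2 members lower at 30 min, 781 genes were lower and 886 higher with 12 pathway genes higher at 24 h, and from 30 min to 24 h 747 were lower and 944 higher, with 3 pathway genes lower and 0 members higher, since fewer genes were tested. With limma on log2(FPKM + 1), 6 genes were higher at 30 min, 895 lower at 24 h and 820 lower from 30 min to 24 h. From 30 min to 24 h 3 pathway genes were lower with limma at either pseudocount or with library totals alone. With no fold threshold, 153 genes were lower and 34 higher at 30 min (pathway 5 lower), 3912 and 3717 at 24 h (pathway 20 and 35), and 3843 and 3988 from 30 min to 24 h (pathway 15 and 44, and 1 member lower). With a fold of at least 2 these were 23 and 1, 372 and 758 (pathway 3 and 6), and 339 and 795 (pathway 1 and 9). Leaving out 1 library gave 10 to 18 genes higher at 30 min, the most without 30 min replicate 2, and 3 to 6 pathway genes lower from 30 min to 24 h, the fewest without 30 min replicate 3.

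The replicate numbers gave no sign of pairing the libraries. Same-numbered libraries had correlations of their deviations between -0.224 and 0.124, and other-numbered libraries between -0.209 and 0.233. With 3 libraries per group these values cannot show that there was no pairing. With a replicate block, calls numbered 63 down and 11 up at 30 min, 1381 and 1780 at 24 h, and 1351 and 1893 from 30 min to 24 h, and among named genes the block took away the call of TRAF2 from 30 min to 24 h.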
